A study of Mus musculus with 17 samples.

Results

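Organoid clones labelled Pax6-KO were compared with wild-type (WT) clones of mouse lacrimal gland in differentiation medium (DM). The comparison rests on 4 of the 17 libraries in the series, 2 KO-labelled clones and 2 WT clones, chosen from the sample titles alone. Organoids are epithelial cultures grown in basement membrane extract, and each clone is a separate clonal line. The same 4 clones were also sequenced in expansion medium (EM), and the series further holds gland tissue and uncloned organoids. The growth protocol describes 2 days of EM before a DM step of 5 days, whereas the series text gives the clones 7 days of exposure to each medium, so the length of the DM step is uncertain. No label used here names the mouse strain, the donors' age or the change made to the Pax6 gene. Each label is carried by 2 clones. A p-value here measures a difference against the spread between clones of a label, pooled over both media. The EM and DM libraries of a clone entered that spread as if independent. A trait of the founder cells cannot be told apart from the genotype beyond the spread between clones.

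Pax6 encodes a transcription factor with a paired domain and a homeodomain that directs the formation of the eye and of the surface epithelium around it, from which the lacrimal gland buds. In the gland, acinar cells release tear proteins and fluid after muscarinic stimulation and water leaves through the channel Aqp5, ducts adjust the ions, basal cells sit beneath both, and myoepithelial cells squeeze the gland. Epithelia of the eye surface also make mucins, keratins and defence proteins, and answer interferons by switching on antiviral genes and antigen presentation.

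Total counts were 22500534 and 18282059 in the WT clones and 18973809 and 19454717 in the KO-labelled clones. Basal and duct keratins were abundant in every DM library: Krt5 stood at 3074 to 4924 CPM (read counts relative to the scaled library size) and Krt7 at 2803 to 3635 CPM. The acinar regulator Bhlha15 stayed between 0.359 and 0.961 CPM, and the myoepithelial marker Cnn1 had 8 counts over the 4 libraries. Other members of these marker lists were abundant, and the lists summed to 2460 to 3217 CPM for acinar and 1746 to 2396 CPM for myoepithelial genes. Ptprc, Adgre1 and Tyrobp (immune cells) and Kdr (endothelium) had no counts in the 4 libraries, and Cd3e had 1. Chromosome 19 stood apart from the other chromosomes. The median log2 difference between labels over its 494 tested genes was 0.29, against -0.08 to 0.05 on the 19 other chromosomes (autosomes and X, leaving out M and Y with 11 and 2 tested genes), and relative to WT clone 1 its median level was 0.20 higher in WT clone 2, 0.26 in KO-labelled clone 1 and 0.43 in KO-labelled clone 2. Among the genes named here, Fam189a2, Ifit2 and Acta2 lie on chromosome 19, and the part of the chromosome difference in their values was not tested.

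**Figure D1:**
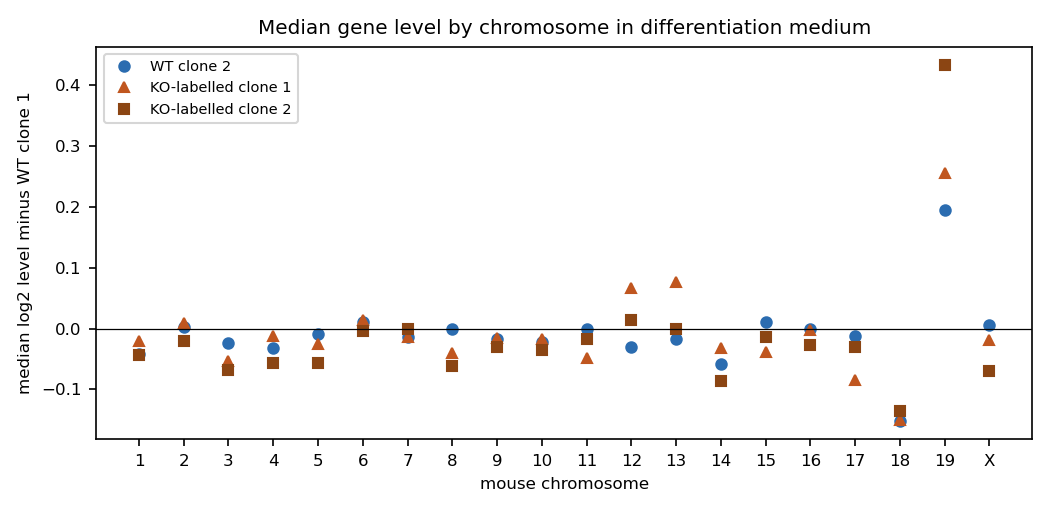
Median over tested genes of the log2 level minus that of WT clone 1 (vertical axis) for each mouse autosome and the X chromosome (horizontal axis) in DM, with 1 point per library. On chromosome 19 the 3 libraries stand at 0.20, 0.26 and 0.43, while the other 19 chromosomes lie between -0.15 and 0.08.

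Pax6 itself was read first (ENSMUSG00000027168, chromosome 2, 105668900 to 105697364 on GRCm38). In DM it stood at 219 and 280 CPM in the WT clones and at 135 and 309 CPM in the KO-labelled clones. The groups overlapped, with KO-labelled clone 1 lowest and KO-labelled clone 2 highest. The log2 difference was -0.17 ± 0.39 (SE, 2 clones per label, adjusted p = 0.831). Counts over the whole gene do not test for a short change in its sequence, so this level gives no check of the labels, and every direction below is drawn from them. The log2 difference was 0.31 without KO-labelled clone 1, -0.89 without KO-labelled clone 2, -0.33 without WT clone 1 and 0.02 without WT clone 2.

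Over all 14282 genes tested, 781 differed between the labels in DM, which is 5.47% of them, with 341 higher (2.39%) and 440 lower (3.08%) in the KO-labelled clones. A gene is called here when its adjusted p from edgeR's quasi-likelihood test falls under 0.05. In all 781 called genes the 2 KO-labelled values lay on one side of both WT values. Over all genes tested, both lay above in 26.3% and both below in 26.3%. Changes of at least 1 on the log2 scale numbered 202 rises and 263 falls. Across called genes the median absolute log2 difference was 1.22 between labels, 0.20 between the KO-labelled clones and 0.21 between the WT clones. Over all tested genes the same 3 medians were 0.29, 0.18 and 0.24. The test picks genes whose labels differ widely against the spread between clones. The separation and the medians of called genes thus follow from the selection and add no support. The number of calls leaned on single libraries: it was 204 without WT clone 1, 524 without WT clone 2, 127 without KO-labelled clone 2 and 0 without KO-labelled clone 1, where 2373 genes had an unadjusted p under 0.05 and the single remaining KO-labelled library is taken to vary like the other groups. All 781 called genes had the same direction in each of these fits, which groups that lie apart largely fix in advance, so this adds no support. With only the 4 DM libraries in the fit 110 genes passed, and DESeq2 called 1681.

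**Figure D2:**
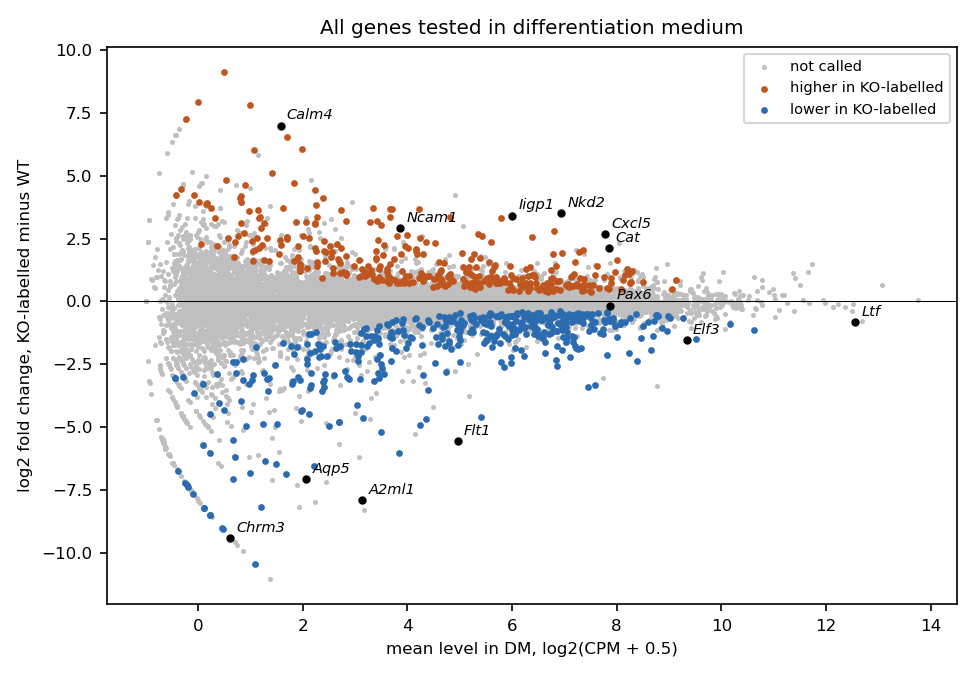
Log2 fold change between KO-labelled and WT clones in DM (vertical axis) against the mean level as log2(CPM + 0.5) (horizontal axis) for the 14282 genes tested. Orange and blue points are the 341 called rises and 440 called falls, grey points were not called, and black points are named, with Pax6 near 0 and Aqp5 at -7.07.

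The 15 largest falls ran from A2ml1 to Olfm4. A2ml1, an alpha-2-macroglobulin-like protease inhibitor of keratinocytes, stood at 97.2 and 81.6 CPM in the WT clones and at 0.565 and 0.159 CPM in the KO-labelled clones (-7.91 ± 1.07, adjusted p = 0.0192). Aqp5, the water channel of acinar membranes, stood at 20.9 and 29.6 CPM against 0.308 and 0.0531 CPM (-7.07 ± 0.58, adjusted p = 0.00734). Flt1, a receptor for vascular endothelial growth factors, stood at 198 and 205 CPM against 6.06 and 2.55 CPM (-5.54 ± 0.49, adjusted p = 0.00872). In each of these genes both KO-labelled clones stood far below the lower WT clone. Flt1 is also a marker of endothelium. Of the 13 endothelial and pericyte markers 5, Kdr among them, had no counts in DM, Pecam1 stood at 0.183 to 1.06 CPM and Vwf at 1.08 to 3.03 CPM. Rgs5, a pericyte marker, stood at 9.29 and 26.1 CPM in the WT clones and 83.9 and 9.56 CPM in the KO-labelled clones. The list summed to 211 and 234 CPM against 92.4 and 16.7 CPM, Flt1 included. Most of this was Flt1 in the WT clones and Rgs5 in the KO-labelled clones. The part of endothelial cells in the fall of Flt1 was not tested.

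Krt20, a keratin of superficial cells, stood at 40.0 and 14.2 CPM against 0.308 and 0.266 CPM (-6.53 ± 0.75, adjusted p = 0.0180). Krt4, a keratin of moist stratified epithelium, stood at 20.5 and 34.6 CPM against 0.308 and 1.70 CPM (-4.78 ± 0.77, adjusted p = 0.0254). Sprr2g, a small proline-rich protein of the cornified envelope, stood at 17.2 and 31.6 CPM against 0.205 and 1.38 CPM (-4.94 ± 0.79, adjusted p = 0.0250). WT clone 1 was the higher WT clone for Krt20 and the lower for Krt4 and Sprr2g.

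Enzymes and receptors were also among the falls. Plat, the tissue plasminogen activator, stood at 63.6 and 132 CPM against 3.28 and 4.36 CPM (-4.68 ± 0.69, adjusted p = 0.0223). Casp1, the caspase that matures interleukin-1, stood at 15.8 and 39.1 CPM against 1.39 and 0.584 CPM (-4.79 ± 0.81, adjusted p = 0.0276). Il1rl1, the receptor for interleukin-33, differed most between the WT clones, at 158 and 34.1 CPM, against 2.93 and 3.51 CPM (-4.90 ± 0.76, adjusted p = 0.0290). Adcy2, an adenylyl cyclase, was steady within labels at 35.2 and 41.3 CPM against 1.85 and 1.22 CPM (-4.63 ± 0.35, adjusted p = 0.00734). Olfm4, a secreted glycoprotein of gut crypts and glands, stood at 82.0 and 323 CPM against 11.03 and 5.79 CPM (-4.59 ± 0.83, adjusted p = 0.0313). The remaining leading falls were Thsd4, Smpdl3a, Adam28 and Oit1, between -6.85 and -5.20.

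The 15 largest rises ran from Calm4 to Nrep, and are given with what each gene is known for. Calm4, a calmodulin-like protein of differentiating skin, stood at 0 and 0.228 CPM in the WT clones and at 9.49 and 18.5 CPM in the KO-labelled clones (6.99 ± 1.01, adjusted p = 0.0223). Pi15, a secreted peptidase inhibitor, differed most between the KO-labelled clones, at 33.1 and 5.63 CPM against 0.229 and 0.342 CPM (6.07 ± 1.26, adjusted p = 0.0427). Nkd2, an inhibitor of Wnt signalling, was the most abundant of the 15, at 461 and 361 CPM against 18.8 and 53.6 CPM (3.51 ± 0.64, adjusted p = 0.0312). The rule that chose the leading genes required groups that lie apart, so their separation is no finding, and what these values show is its size.

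Dclk1, a microtubule-associated kinase that marks tuft cells, stood at 5.49 and 11.6 CPM in the WT clones and at 98.7 and 74.1 CPM in the KO-labelled clones (3.35 ± 0.33, adjusted p = 0.0132). Gas1, a membrane protein that binds hedgehog ligands, stood at 1.74 and 5.69 CPM against 45.4 and 30.4 CPM (3.37 ± 0.52, adjusted p = 0.0244). Skint1, which selects skin gamma delta T cells, stood at 1.78 and 3.30 CPM against 36.0 and 30.0 CPM (3.70 ± 0.31, adjusted p = 0.00734). All 3 genes were low in both WT clones and rose by similar amounts. C1ra, a serine protease of complement, stood at 0.320 and 0.626 CPM against 11.7 and 13.1 CPM (4.71 ± 0.75, adjusted p = 0.0249). The other leading rises were Fam83a, Fam189a2, Gphb5, Ddit4l and Nrep, between 3.34 and 6.55, and the interferon-inducible Ifi206, Slfn1 and Iigp1 described below. Calm4, C1ra, Skint1, Ifi206, Slfn1, Iigp1 and Sprr2g have close relatives in the genome, and 6 of the 30 leading genes overlap a coding or long noncoding gene on the other strand, so reads of such genes may be shared. Of the 15 falls and 15 rises, 14 and 7 were called without WT clone 1, 12 and 10 without WT clone 2, 6 and 4 without KO-labelled clone 2, and 0 and 0 without KO-labelled clone 1. With the clone as a random effect 9 and 14 were called, and with only the 4 DM libraries 7 and 8.

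**Figure D3:**
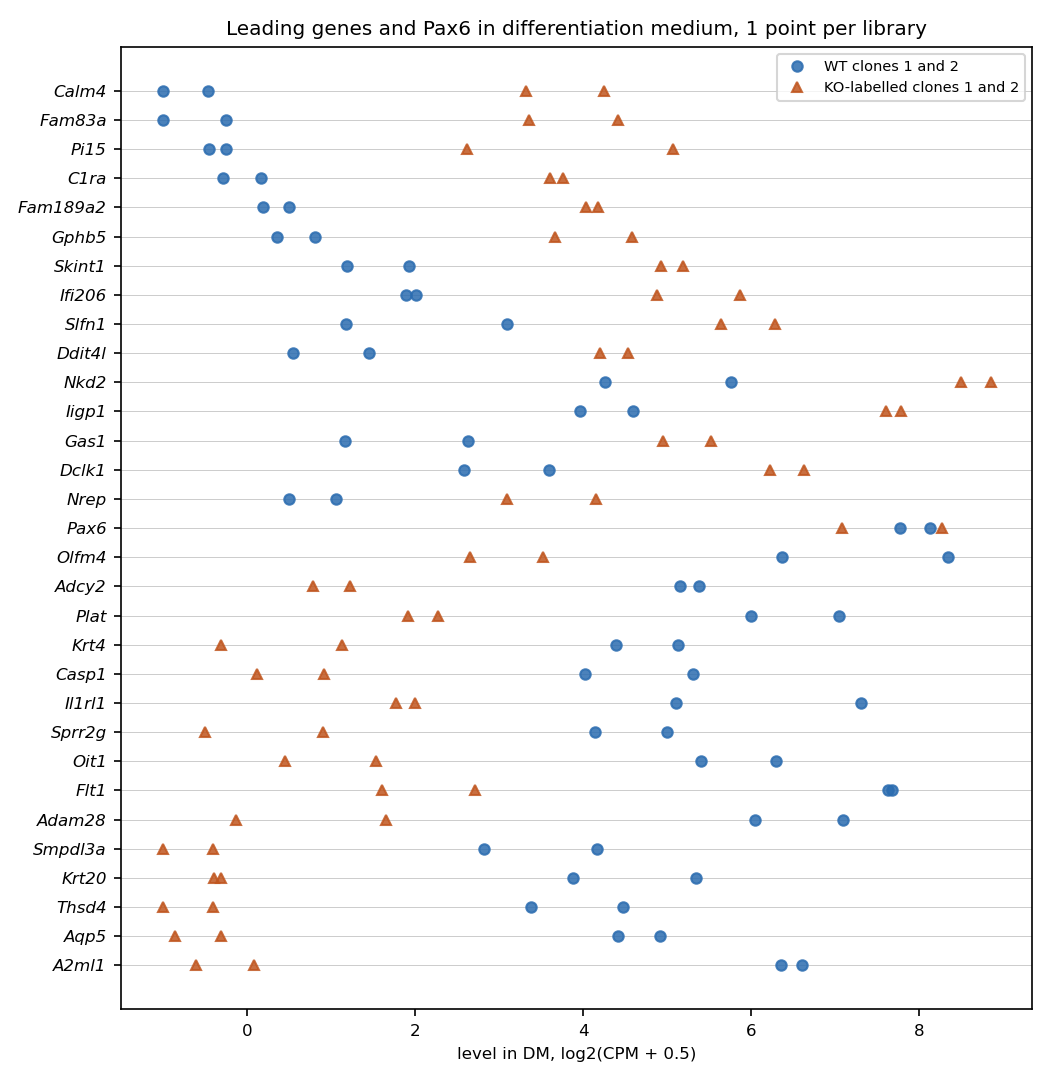
Level in DM as log2(CPM + 0.5) (horizontal axis) of the 15 leading rises, Pax6 and the 15 leading falls (vertical axis), with circles for the 2 WT clones and triangles for the 2 KO-labelled clones. The groups of the 30 leading genes lie apart by the rule that chose them, and Pax6 is drawn for its level, at 219 and 280 CPM against 135 and 309 CPM.

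Uncloned DM organoids, which carry no label of a gene change, gave a further reference level for the 30 leading genes. They come from a separately counted and separately scaled table, so levels are set side by side and were not tested. On a log scale 26 of the 30 genes lay nearer the WT clones, 14 of the 15 falls and 12 of the 15 rises. The 30 were chosen for extreme values in the clones, and the same count over all genes tested was not made. Which label moved can therefore not be read from it. Fam83a, counted nearer the WT clones, stood at 1.58, 1.96 and 1.16 CPM, between label means of 0.171 and 15.3 CPM. Aqp5 stood at 30.8, 37.4 and 34.3 CPM in the 3 uncloned lines, close to the 20.9 and 29.6 CPM of the WT clones. A2ml1 stood higher still, at 505, 317 and 759 CPM, and Flt1 at 389, 427 and 541 CPM. Nearer the KO-labelled clones were C1ra at 3.56, 5.00 and 7.28 CPM, Dclk1 at 41.9, 29.5 and 124 CPM, Nrep at 13.2, 17.1 and 12.2 CPM and Olfm4 at 34.0, 43.8 and 17.7 CPM.

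Genes were then read by role, beginning with the transcription factors. Of 31 tested factors of the lacrimal gland and eye surface, 2 fell and 2 rose (12.9%). Over all genes tested in DM 5.47% were called, 2.39% higher and 3.08% lower. Those shares are the background for the calls of each list below. Elf3, an ETS factor of differentiating epithelium, stood at 1191 and 1014 CPM in the WT clones and at 294 and 464 CPM in the KO-labelled clones (-1.54 ± 0.23, adjusted p = 0.0223). Foxa1, a forkhead factor of glandular epithelium, stood at 93.6 and 94.7 CPM against 35.1 and 51.2 CPM (-1.13 ± 0.22, adjusted p = 0.0358). Both were lower in each KO-labelled clone than in either WT clone. Runx1, a regulator of gland and hair epithelium, rose from 110 and 155 CPM to 280 and 270 CPM (1.06 ± 0.18, adjusted p = 0.0284). Mitf, known from pigment cells, rose at low levels from 0.778 and 1.42 CPM to 4.77 and 7.44 CPM (2.47 ± 0.49, adjusted p = 0.0391). Falls and rises in this list numbered 1 and 0 without WT clone 1, 1 and 4 without WT clone 2, 1 and 0 without KO-labelled clone 2 and 0 and 0 without KO-labelled clone 1.

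Tear proteins showed no call. Of 35 listed, 18 had no counts and 12 were tested, and none passed edgeR's test. The smallest adjusted p was 0.0771, 4 had an unadjusted p under 0.05, and DESeq2 called 2 rises and 1 fall. Over all 14282 genes tested, 3486 had an unadjusted p under 0.05 by edgeR. The list median was 0.72, with 8 members above 0 and 4 below. Ltf, lactoferrin, the most abundant of them, stood at 6535 and 9466 CPM in the WT clones and at 4003 and 5056 CPM in the KO-labelled clones (-0.82 ± 0.26, adjusted p = 0.120). Clu, clusterin, had the smallest adjusted p of the list, at 1599 and 2333 CPM against 4172 and 3383 CPM (0.94 ± 0.25, adjusted p = 0.0771). The groups did not overlap for either gene, but neither difference passed the test. Without WT clone 2, 1 tear protein was called, higher in the KO-labelled clones.

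In the main edgeR fit, calls in the secretory machinery of acinar cells in DM were all falls. Of 27 tested genes 4 fell and none rose (14.8%, against 5.47% called over all genes). The list median was -0.31 on the log2 scale, against -0.01 over all genes tested. Besides Aqp5, the falls were Chrm3, Rab27a and Itpr3. Chrm3, the muscarinic receptor that triggers tear release, stood at 4.30 and 4.10 CPM in the WT clones and had no counts in either KO-labelled clone, at least 53.8-fold lower when 3 counts are allowed over the group (adjusted p = 0.0132). Rab27a, a GTPase that docks secretory granules, stood at 241 and 301 CPM against 51.5 and 107 CPM (-1.77 ± 0.31, adjusted p = 0.0297). Itpr3, a calcium release channel, stood at 395 and 396 CPM against 284 and 274 CPM (-0.50 ± 0.10, adjusted p = 0.0395). Chrm3 and Aqp5 were thus near or at 0 in both KO-labelled clones, whereas Rab27a and Itpr3 stayed abundant. DESeq2 called 2 rises and 6 falls in this list in DM, and total-count scaling 1 rise and 3 falls. In EM 4 of its genes rose and 1 fell. Falls in the list numbered 2, 2, 0 and 3 without WT clone 1, WT clone 2, KO-labelled clone 1 and KO-labelled clone 2, and rises numbered 2 without WT clone 2.

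The 250 bases before the RefSeq start of Aqp5 (GRCm38.p6, chr15:99590778-99591027, plus strand) are shown because it led the falls among secretory genes with a measurable level in both labels, and was searched on both strands for letters that Pax proteins bind. Neither TTCACGC, a core of the paired domain site, nor the homeodomain pair, which is TAAT, any 3 bases and ATTA, was found, so no base is in capitals.
Aqp5: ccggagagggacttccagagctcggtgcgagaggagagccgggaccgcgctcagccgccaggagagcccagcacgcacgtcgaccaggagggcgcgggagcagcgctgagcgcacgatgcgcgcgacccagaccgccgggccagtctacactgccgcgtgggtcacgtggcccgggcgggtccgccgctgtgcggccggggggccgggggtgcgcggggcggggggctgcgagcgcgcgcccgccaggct
Over all genes, promoters of this length were matched for 250 of the called rises and 332 of the called falls. TTCACGC was present in 1.6% of the promoters of rises, 1.51% of those of falls and 1.82% of those of 10395 tested genes. The homeodomain pair was present in 1 promoter of a rise (0.4%), in none of the falls and in 0.231% of tested genes. A match or its absence in these windows is a description of letters only.

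The share of calls among duct genes was near the 5.47% over all genes. Of 28 tested keratins, channels, pumps and water channels of ducts, 1 fell and none rose. Slc4a4, the sodium bicarbonate cotransporter, stood at 165 and 149 CPM in the WT clones and at 67.1 and 47.6 CPM in the KO-labelled clones (-1.46 ± 0.26, adjusted p = 0.0308). Falls in the list numbered 1, 0, 0 and 0 and rises 0, 3, 0 and 0 without WT clone 1, WT clone 2, KO-labelled clone 1 and KO-labelled clone 2. Among 17 tight junction genes Cldn23 fell, from 87.2 and 85.3 CPM to 23.4 and 34.2 CPM (-1.58 ± 0.22, adjusted p = 0.0199), and Cldn8, a claudin that seals against sodium, rose from 1.65 and 4.10 CPM to 10.9 and 8.29 CPM (1.76 ± 0.37, adjusted p = 0.0435).

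Mucins and the enzymes that build them had the highest share of calls among the lists with at least 10 tested members. Of 17 tested, 6 fell and none rose (35.3%, against 5.47% called over all genes), and the list median was -0.86. Muc4, a membrane mucin, stood at 960 and 622 CPM in the WT clones and at 206 and 208 CPM in the KO-labelled clones (-1.94 ± 0.36, adjusted p = 0.0337). Muc1, a membrane mucin, stood at 104 and 146 CPM against 17.1 and 30.4 CPM (-2.40 ± 0.31, adjusted p = 0.0178). Muc20 stood at 210 and 298 CPM against 42.5 and 58.6 CPM (-2.33 ± 0.30, adjusted p = 0.0180). In all 3 both KO-labelled clones lay well below the WT clones, and they lay close together for Muc4 only. Galnt3, which starts mucin-type sugar chains, stood at 231 and 208 CPM against 110 and 132 CPM (-0.86 ± 0.13, adjusted p = 0.0244), and Galnt12, of the same enzyme family, at 8.33 and 8.65 CPM against 0.513 and 1.59 CPM (-3.01 ± 0.53, adjusted p = 0.0295). Fcgbp, a mucin-like secreted protein, was the last of the 6 (-3.95 ± 0.76, adjusted p = 0.0368). Falls in the list numbered 2, 4, 0 and 2 without WT clone 1, WT clone 2, KO-labelled clone 1 and KO-labelled clone 2. In EM 2 mucin genes fell and the median was 0.59.

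Markers of the corneal and conjunctival surface had the lowest median of the lists with at least 10 tested members, -0.92, with 3 of 18 fallen and none risen. These were Krt4, Krt12 and Areg. Krt12, the keratin of corneal epithelium, stood at 5.40 and 2.28 CPM in the WT clones and had 3 counts over both KO-labelled clones, 51.2-fold lower with an exact 95% Poisson interval from 17.5 to 248 (adjusted p = 0.0376). Areg, a ligand of the EGF receptor, stood at 27.6 and 24.5 CPM against 8.42 and 11.2 CPM (-1.41 ± 0.24, adjusted p = 0.0292). Summed over the list, the level was 6646 and 6730 CPM in the WT clones and 7470 and 6860 CPM in the KO-labelled clones. The most abundant members, Cldn4 and Clu, moved in opposite directions, and neither was called. Cldn4 stood at 3223 and 2961 CPM against 2102 and 2605 CPM, and Clu at 1599 and 2333 CPM against 4172 and 3383 CPM. Krt19 and Tkt, next in level, had lower means in the KO-labelled clones and were not called. Aldh3a1, another corneal marker, stood at 30.9 and 65.0 CPM against 33.5 and 69.7 CPM (0.11) and was not called. Ly6d stood at 4.21 and 18.9 CPM against 44.8 and 138 CPM (2.99), also not called. Over the list 14 members lay below 0 and 4 above, Clu, Ly6d, Dapl1 and Aldh3a1, as did 7318 and 6956 of all genes tested. Falls in the list numbered 2, 2, 0 and 2 in the 4 fits without a DM library, in the order WT clone 1, WT clone 2, KO-labelled clone 1, KO-labelled clone 2, and rises numbered 2 without WT clone 2.

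Stratification and cornified envelope genes moved both ways. Of 33 tested, 5 fell and 3 rose, and the list median was -0.15. Besides Krt4, the falls included Krt1, a suprabasal keratin, which stood at 0.915 and 1.20 CPM in the WT clones and had 3 counts in the KO-labelled clones, 13.3-fold lower with an interval from 4.54 to 64.4 (adjusted p = 0.0258). Sprr2f, an envelope protein, stood at 609 and 525 CPM against 18.7 and 89.1 CPM (-3.40 ± 0.71, adjusted p = 0.0432). The envelope linkers Evpl (-1.22 ± 0.26, adjusted p = 0.0477) and Ppl (-0.78 ± 0.16, adjusted p = 0.0417) completed the falls. Dsc3, a desmosomal cadherin of lower layers, rose from 121 and 138 CPM to 203 and 189 CPM (0.60 ± 0.12, adjusted p = 0.0358), and Sbsn, suprabasin, rose from 50.9 and 53.01 CPM to 102 and 98.4 CPM (0.94 ± 0.18, adjusted p = 0.0358). Klk8, an epidermal protease, rose from 34.5 and 26.6 CPM to 78.4 and 88.0 CPM (1.44 ± 0.31, adjusted p = 0.0463). Falls in the list numbered 3, 1, 0 and 3 in the fits without WT clone 1, WT clone 2, KO-labelled clone 1 and KO-labelled clone 2, and rises 0, 1, 0 and 0.

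Of 24 basal cell genes tested, 1 fell and none rose, a share near the 5.47% over all genes, at a median of 0.04. Sox2, a progenitor factor, stood at 18.7 and 26.8 CPM in the WT clones and at 1.54 and 3.77 CPM in the KO-labelled clones (-3.10 ± 0.41, adjusted p = 0.0180). Krt14, a basal keratin, stood at 1276 and 1322 CPM against 1964 and 2761 CPM (0.86 ± 0.28, adjusted p = 0.124), and Trp63, the basal cell master factor, at 81.6 and 148 CPM against 196 and 215 CPM (0.84 ± 0.25, adjusted p = 0.103). Krt15 stood at 840 and 1952 CPM against 20.6 and 254 CPM (-3.34 ± 1.13, adjusted p = 0.132). Groups did not overlap in these 3 keratin and factor genes, yet none passed the test. Falls in the basal list numbered 1, 2, 0 and 1 and rises 0, 3, 0 and 0 without WT clone 1, WT clone 2, KO-labelled clone 1 and KO-labelled clone 2. None of 11 contractile genes of myoepithelial cells was called by edgeR, DESeq2 or any fit without a DM library, and 1 had an unadjusted p under 0.05 in edgeR. Over all genes tested, 3486 of 14282 had such an unadjusted p by edgeR. Acta2, smooth muscle actin, stood at 1.69 and 10.8 CPM against 20.1 and 32.6 CPM (2.09 ± 0.93, adjusted p = 0.225).

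**Figure D4:**
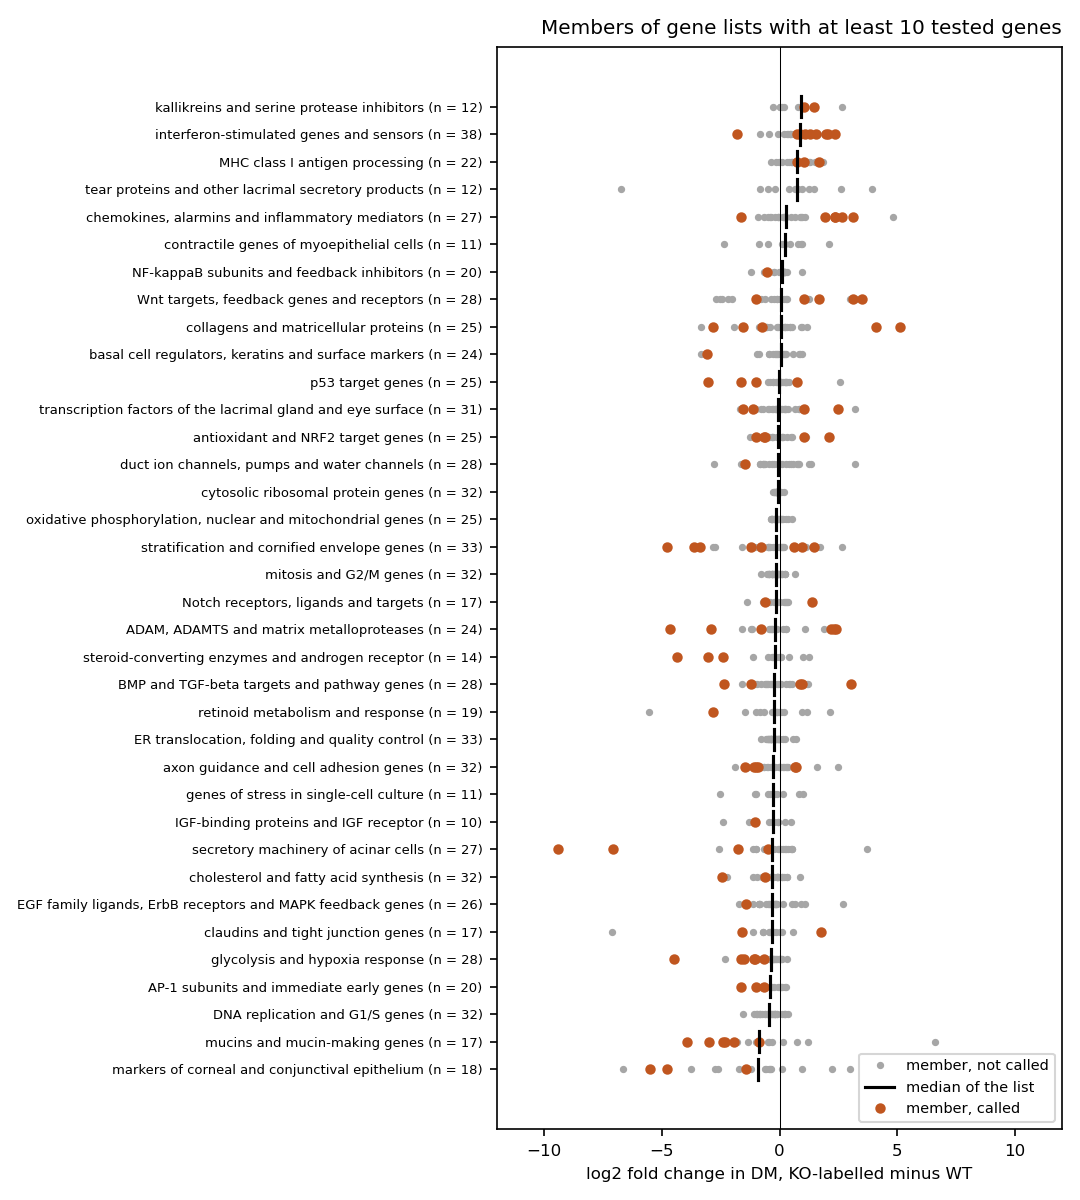
Log2 fold change in DM between KO-labelled and WT clones (horizontal axis) for each tested member of the gene lists with at least 10 tested genes (vertical axis, sorted by median). Orange points were called, grey points were not, and the bars are list medians, from -0.92 for corneal and conjunctival markers to 0.91 for kallikreins and serine protease inhibitors; members without counts in one of the labels, Chrm3 among them, are drawn at fitted values, which are no bounds.

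Interferon-stimulated genes and sensors gave more rises than falls in the KO-labelled clones. Of 38 tested, 8 rose and 1 fell (23.7%, against 5.47% called over all genes), and the list median was 0.85. In 34 of the 38 both KO-labelled values lay above both WT values, against 26.3% of all genes tested. Leading rises outside this list also belong to families that interferons induce. Ifi206, a DNA-binding PYHIN protein, stood at 3.20 and 3.53 CPM in the WT clones and 29.0 and 57.8 CPM in the KO-labelled clones (3.69 ± 0.37, adjusted p = 0.0132). Iigp1, an immunity-related GTPase, stood at 23.7 and 15.1 CPM against 194 and 221 CPM (3.41 ± 0.58, adjusted p = 0.0284). Slfn1, a schlafen protein, stood at 8.05 and 1.76 CPM against 49.5 and 77.4 CPM (3.67 ± 0.62, adjusted p = 0.0279). Every KO-labelled value of these 3 genes was several times the highest WT value.

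Gbp3, a guanylate-binding GTPase, rose from 78.1 and 77.0 CPM to 291 and 324 CPM (1.99 ± 0.24, adjusted p = 0.0151). Ifit2, an RNA-binding antiviral protein, rose from 65.7 and 94.0 CPM to 260 and 408 CPM (2.07 ± 0.25, adjusted p = 0.0152). Cxcl10, a chemokine for T cells, rose from 16.5 and 25.4 CPM to 77.0 and 139 CPM (2.37 ± 0.35, adjusted p = 0.0223). Ifi35, Oas1g, Rsad2 and Ddx58 were also among the rises, between 0.74 and 1.53. Ifi27 went the other way, from 82.8 and 99.1 CPM to 26.7 and 24.7 CPM (-1.82 ± 0.13, adjusted p = 0.00734). Rises in the list numbered 1, 4, 0 and 1 without WT clone 1, WT clone 2, KO-labelled clone 1 and KO-labelled clone 2, 22 with DESeq2 and 11 with total-count scaling.

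Class I antigen presentation gave rises only. Of 22 tested genes 3 rose and none fell (13.6%, against 5.47% called over all genes), at a median of 0.73. H2-T22, a nonclassical class I molecule, rose from 172 and 118 CPM to 384 and 536 CPM (1.67 ± 0.30, adjusted p = 0.0308). Tap2, which carries peptides into the endoplasmic reticulum, rose from 45.7 and 48.8 CPM to 75.1 and 83.9 CPM (0.75 ± 0.14, adjusted p = 0.0323), and Psmb9, an immunoproteasome subunit, from 60.3 and 50.4 CPM to 102 and 123 CPM (1.02 ± 0.21, adjusted p = 0.0413). No member was called in any of the 4 fits without a DM library, and DESeq2 called 9 rises and 1 fall. H2-T22 has close copies in the major histocompatibility complex, so its counts may be shared.

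Promoters of 4 of these genes are shown, 250 bases before the RefSeq start on GRCm38.p6, because they hold, on one of the strands and in capitals, the spaced repeat of the interferon-stimulated response element, which is GAAA, any 2 bases and GAAA. They lie at chr1:173491319-173491568 (Ifi206, minus strand), chr3:142559794-142560043 (Gbp3, plus strand, the first of its listed starts), chr5:92348890-92349139 (Cxcl10, minus strand) and chr17:36042743-36042992 (H2-T22, minus strand). In Cxcl10 the other stretch in capitals is a kappaB site, searched as GGGA, any base, TT, any base and CC.
Ifi206: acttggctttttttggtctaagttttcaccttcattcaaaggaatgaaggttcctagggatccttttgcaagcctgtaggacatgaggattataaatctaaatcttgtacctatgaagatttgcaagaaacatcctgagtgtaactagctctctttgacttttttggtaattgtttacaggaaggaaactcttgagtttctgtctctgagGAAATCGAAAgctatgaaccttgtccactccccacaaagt
Gbp3: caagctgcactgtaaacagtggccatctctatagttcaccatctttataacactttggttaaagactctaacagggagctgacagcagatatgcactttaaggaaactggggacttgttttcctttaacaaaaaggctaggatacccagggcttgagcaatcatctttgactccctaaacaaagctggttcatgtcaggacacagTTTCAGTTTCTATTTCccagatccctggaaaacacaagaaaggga
Cxcl10: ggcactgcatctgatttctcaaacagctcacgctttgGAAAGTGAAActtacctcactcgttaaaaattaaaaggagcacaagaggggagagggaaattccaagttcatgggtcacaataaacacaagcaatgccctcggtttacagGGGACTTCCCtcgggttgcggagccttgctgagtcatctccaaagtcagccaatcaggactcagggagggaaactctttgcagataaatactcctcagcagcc
H2-T22: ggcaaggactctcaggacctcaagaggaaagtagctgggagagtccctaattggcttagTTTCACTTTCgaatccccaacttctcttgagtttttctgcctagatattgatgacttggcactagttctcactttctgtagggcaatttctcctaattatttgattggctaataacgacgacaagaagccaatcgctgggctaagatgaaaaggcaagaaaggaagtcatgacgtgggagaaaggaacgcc
The repeat ended 30 bases before the start in Ifi206 and 29 in Gbp3, where 2 copies overlap, and lay 203 bases before the start in Cxcl10 and 181 in H2-T22. The repeat was present in 20 of 250 promoters of called rises (8.00%) and in 4 of 332 of called falls (1.20%), against 3.34% of 10395 tested genes and 3.46% of 27025 genes with a promoter in the table. These shares were not tested. Foxa1, a called fall, holds the repeat 217 bases before its start.

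Chemokines and alarmins gave 5 rises and 1 fall among 27 tested genes, at a median of 0.29, or 0.19 with the member at 0 in a group set to its bound. The neutrophil chemokines Cxcl1 and Cxcl2 rose from 18.2 and 14.8 CPM to 64.4 and 62.6 CPM (1.94 ± 0.21, adjusted p = 0.0132) and from 10.9 and 6.66 CPM to 42.6 and 48.0 CPM (2.36 ± 0.25, adjusted p = 0.0132). Cxcl5, of the same family, was the most abundant, rising from 69.0 and 105 CPM to 475 and 625 CPM (2.66 ± 0.36, adjusted p = 0.0189). Ccl20, a chemokine for dendritic cells and Th17 cells, rose from 1.33 and 1.37 CPM to 13.8 and 9.51 CPM (3.11 ± 0.57, adjusted p = 0.0317), and Cxcl10 was the fifth. Tslp, an epithelial alarmin, fell from 73.5 and 80.0 CPM to 25.0 and 24.1 CPM (-1.64 ± 0.14, adjusted p = 0.00734). Rises in the list numbered 2, 5, 0 and 2 without WT clone 1, WT clone 2, KO-labelled clone 1 and KO-labelled clone 2. Of the 20 NF-kappaB subunits and feedback inhibitors, Tnip1 alone was called, from 145 and 142 CPM to 95.6 and 100.1 CPM (-0.56 ± 0.09, adjusted p = 0.0278).

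The promoters of Cxcl1 (chr5:90890995-90891244) and Cxcl2 (chr5:90903649-90903898), both on the plus strand, are shown because these neighbouring genes rose together and both hold a kappaB site, in capitals.
Cxcl1: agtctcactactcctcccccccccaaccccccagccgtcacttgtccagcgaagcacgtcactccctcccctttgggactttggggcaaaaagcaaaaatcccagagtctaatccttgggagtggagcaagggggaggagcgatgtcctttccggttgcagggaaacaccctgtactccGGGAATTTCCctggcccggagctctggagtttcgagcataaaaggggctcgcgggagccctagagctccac
Cxcl2: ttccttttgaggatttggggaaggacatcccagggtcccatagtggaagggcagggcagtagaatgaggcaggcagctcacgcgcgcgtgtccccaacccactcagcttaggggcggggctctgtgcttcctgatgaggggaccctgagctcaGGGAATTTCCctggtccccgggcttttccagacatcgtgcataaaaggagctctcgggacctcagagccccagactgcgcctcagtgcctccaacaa
The site lay 61 bases before the start in Cxcl1 and 87 in Cxcl2. It was present in 1.6% of promoters of called rises, 1.20% of those of falls and 1.40% of those of tested genes. The called falls Tnip1 and Olfm4 hold it too, 47 and 42 bases before the start.

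Wnt pathway genes gave 4 rises and 1 fall among 28 tested (17.9%, against 5.47% called over all genes). Apart from Nkd2, the rises were Apcdd1, a membrane inhibitor of Wnt, from 0.320 and 0.399 CPM to 2.31 and 3.93 CPM (3.10 ± 0.49, adjusted p = 0.0249), the receptor Fzd10 (1.66 ± 0.30, adjusted p = 0.0317) and the R-spondin receptor Lgr4 (1.03 ± 0.21, adjusted p = 0.0424). Axin2, a feedback inhibitor induced by beta-catenin, fell from 27.6 and 26.1 CPM to 13.4 and 13.1 CPM (-1.02 ± 0.12, adjusted p = 0.0148). Feedback genes of this pathway therefore moved in both directions. Rises numbered 0, 2, 0 and 0 and falls 2, 3, 0 and 0 without WT clone 1, WT clone 2, KO-labelled clone 1 and KO-labelled clone 2.

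BMP and TGF-beta genes gave 3 rises and 2 falls among 28 tested. Tgfb3, a TGF-beta ligand, rose from 1.83 and 5.47 CPM to 28.9 and 31.1 CPM (3.05 ± 0.63, adjusted p = 0.0431), and Ltbp4, which anchors latent TGF-beta in the matrix, from 117 and 111 CPM to 231 and 203 CPM (0.93 ± 0.12, adjusted p = 0.0180). Inhba, the activin A subunit, rose from 499 and 340 CPM to 761 and 751 CPM (0.85 ± 0.19, adjusted p = 0.0482). The BMP targets Id1 and Id2 fell, Id1 from 16.3 and 39.3 CPM to 6.67 and 4.04 CPM (-2.37 ± 0.51, adjusted p = 0.0477) and Id2 from 80.9 and 56.6 CPM to 30.7 and 27.7 CPM (-1.23 ± 0.18, adjusted p = 0.0223). Ligand and matrix genes were thus among the rises and both called Id genes among the falls. Rises numbered 1, 2, 0 and 1 and falls 2, 1, 0 and 0 without WT clone 1, WT clone 2, KO-labelled clone 1 and KO-labelled clone 2.

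In the Notch list of 17 tested genes, the ligand Dll1 rose from 15.7 and 25.2 CPM to 48.8 and 56.7 CPM (1.37 ± 0.25, adjusted p = 0.0308) and the target Hes1 fell from 154 and 177 CPM to 101 and 112 CPM (-0.63 ± 0.12, adjusted p = 0.0345). Among 26 EGF family and MAPK feedback genes Areg alone was called, with 20 of the 26 below 0, as were 7318 of all 14282 tested. Of 20 AP-1 and immediate early genes 3 fell and none rose: Maff (-1.64 ± 0.18, adjusted p = 0.0132), Btg2 (-1.02 ± 0.11, adjusted p = 0.0132) and Junb, which stood at 641 and 654 CPM against 389 and 433 CPM (-0.66 ± 0.11, adjusted p = 0.0258). None of the genes of these 3 lists was called without KO-labelled clone 1, and without WT clone 2 the EGF and MAPK list had 5 falls.

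Steroid-converting enzymes supplied 3 falls and no rise among 14 tested genes. Hsd17b11 stood at 65.6 and 80.5 CPM in the WT clones and at 12.6 and 14.6 CPM in the KO-labelled clones (-2.42 ± 0.16, adjusted p = 0.00634). Hsd17b2, which inactivates oestradiol and testosterone, stood at 12.3 and 13.7 CPM against 0.462 and 0.797 CPM (-4.36 ± 0.36, adjusted p = 0.00734), and Hsd11b1, which regenerates active glucocorticoid, at 5.54 and 5.01 CPM against 0.616 and 0.638 CPM (-3.06 ± 0.34, adjusted p = 0.0132). Clones of one label agreed closely in all 3 genes. Falls numbered 3, 3, 0 and 2 without WT clone 1, WT clone 2, KO-labelled clone 1 and KO-labelled clone 2. Of 19 retinoid genes Adh7, a retinol-oxidising dehydrogenase, was the only one called, from 5.49 and 14.4 CPM to 1.13 and 1.65 CPM (-2.83 ± 0.49, adjusted p = 0.0284).

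Glycolysis and hypoxia response genes gave 6 falls and no rise among 28 tested (21.4%, against 5.47% called over all genes), at a median of -0.38. Of the 28, 24 lay below 0, against 7318 of all 14282 genes tested. P4ha1, a collagen prolyl hydroxylase, stood at 177 and 169 CPM in the WT clones and at 49.6 and 62.4 CPM in the KO-labelled clones (-1.63 ± 0.14, adjusted p = 0.00872). Ero1l, an oxidase of the endoplasmic reticulum, stood at 1326 and 1126 CPM against 369 and 498 CPM (-1.50 ± 0.22, adjusted p = 0.0223). The phosphofructokinases Pfkl (-0.65 ± 0.10, adjusted p = 0.0244) and Pfkp (-1.04 ± 0.17, adjusted p = 0.0260) fell less. P4ha2 and the lactate transporter Slc16a3 were the other 2. Falls numbered 2, 3, 0 and 1 without WT clone 1, WT clone 2, KO-labelled clone 1 and KO-labelled clone 2. In cholesterol and fatty acid synthesis 2 of 32 genes fell and none rose (6.25%), near the 5.47% called over all genes. Among them was Insig1, a sterol-sensing brake on the pathway, from 53.3 and 51.1 CPM to 10.2 and 9.03 CPM (-2.44 ± 0.22, adjusted p = 0.00872). Of the 32, 25 lay below 0, as did 7318 of all 14282 genes tested.

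Antioxidant genes split. Cat, catalase, rose from 103 and 120 CPM to 444 and 519 CPM (2.11 ± 0.18, adjusted p = 0.00734) and Gpx2, a glutathione peroxidase, from 193 and 204 CPM to 433 and 385 CPM (1.05 ± 0.15, adjusted p = 0.0223). Gclm, a subunit of the enzyme that starts glutathione synthesis, fell from 128 and 118 CPM to 76.0 and 79.9 CPM (-0.66 ± 0.10, adjusted p = 0.0223), and Txnrd1 and Osgin1 also fell, so 2 of 25 listed genes rose and 3 fell. Of 25 p53 targets 3 fell and 1 rose. Gdf15, a stress cytokine, fell from 40.2 and 18.2 CPM to 3.28 and 3.83 CPM (-3.04 ± 0.41, adjusted p = 0.0193), Pmaip1, a pro-apoptotic factor, from 317 and 184 CPM to 81.5 and 81.5 CPM (-1.62 ± 0.23, adjusted p = 0.0223), and Eda2r rose (0.72 ± 0.12, adjusted p = 0.0280). Antioxidant rises numbered 1, 2, 0 and 1 and falls 0, 2, 0 and 1, and p53 falls 3, 3, 0 and 0, without WT clone 1, WT clone 2, KO-labelled clone 1 and KO-labelled clone 2.

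Matrix, protease and adhesion genes changed in both directions. Col6a1 rose from 0.275 and 0.228 CPM to 11.8 and 6.16 CPM (5.11 ± 1.03, adjusted p = 0.0484) and Col6a2 from 0.0915 and 0.342 CPM to 3.70 and 3.72 CPM (4.11 ± 0.68, adjusted p = 0.0317). Both chains of collagen VI also serve as fibroblast markers. Of that list of 17 genes 5 were tested, Col1a1, Dcn and Pdgfra had 14, 1 and 12 counts over the 4 libraries, and the summed level was 80.8 and 251 CPM in the WT clones and 120 and 114 CPM in the KO-labelled clones. Col7a1, the anchoring fibril collagen, fell from 50.6 and 43.7 CPM to 16.7 and 15.1 CPM (-1.57 ± 0.16, adjusted p = 0.0132), and Lama5, a basement membrane laminin, fell from 570 and 519 CPM to 318 and 326 CPM (-0.76 ± 0.13, adjusted p = 0.0276).

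Adamts9, a proteoglycan-cleaving protease, rose from 8.65 and 11.3 CPM to 51.6 and 48.4 CPM (2.33 ± 0.19, adjusted p = 0.00734), and the gelatinase Mmp2 rose from 2.43 and 1.59 CPM to 6.77 and 14.8 CPM (2.41 ± 0.49, adjusted p = 0.0398). Together with Plat, the sheddase Adam9 fell (-0.79 ± 0.14, adjusted p = 0.0295), in a protease list of 24 with 3 rises and 3 falls. Ncam1, a neural cell adhesion molecule that Pax6 is known to regulate elsewhere, had the smallest adjusted p of the genes named: it rose from 5.35 and 4.67 CPM to 36.7 and 38.6 CPM (2.91 ± 0.16, adjusted p = 0.00477). Among 32 guidance and adhesion genes 4 fell and 2 rose. Efna1, a membrane ephrin, fell from 130 and 129 CPM to 57.7 and 63.4 CPM (-1.10 ± 0.16, adjusted p = 0.0223), and Robo1, a Slit receptor, rose from 103 and 134 CPM to 202 and 186 CPM (0.71 ± 0.14, adjusted p = 0.0395). Igfbp7, a secreted IGF-binding protein, was the single call of 10 genes in its list, from 760 and 581 CPM to 363 and 288 CPM (-1.04 ± 0.20, adjusted p = 0.0349). Rises and falls in the protease list numbered 1 and 1 without WT clone 1 and also without WT clone 2, 1 and 0 without KO-labelled clone 2 and 0 and 0 without KO-labelled clone 1, and the guidance list had 0 and 0, 1 and 3, 0 and 0, and 0 and 0 in those fits.

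Cell growth machinery gave no calls by edgeR. None of 32 DNA replication, 32 mitosis, 32 ribosomal protein, 33 endoplasmic reticulum and 25 oxidative phosphorylation genes passed in DM, and 6, 0, 0, 12 and 5 of them had an unadjusted p under 0.05. Over all 14282 genes tested, 3486 had an unadjusted p under 0.05 by edgeR. DESeq2 called 1, 0, 0, 5 and 2, all lower, and edgeR without WT clone 2 called 2 DNA replication genes, both lower. The DNA replication median was -0.46 and the mitosis median -0.16. All 32 mitosis genes overlapped between labels, as did 47.5% of all genes tested, and their summed level was highest in WT clone 1, at 572 CPM, against 230 CPM in WT clone 2 and 307 and 418 CPM in the KO-labelled clones. Calls from markers of other cell types were Cd68, which fell from 191 and 122 CPM to 31.0 and 39.7 CPM (-2.15 ± 0.38, adjusted p = 0.0302), Mbp (-0.80 ± 0.13, adjusted p = 0.0249) and Acta1 (-2.38 ± 0.46, adjusted p = 0.0361). Cd68 is lysosomal and not limited to macrophages. The 19 immune markers summed to 196 and 129 CPM in the WT clones and 36.6 and 41.7 CPM in the KO-labelled clones, most of it Cd68.

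The same clones in EM show which differences were shared between media. In EM 1399 genes were called (9.80%), with 769 higher (5.38%) and 630 lower (4.41%) in the KO-labelled clones. Of the 781 DM calls, 457 were also called in EM, all in the same direction, which is 58.5% of the DM calls and 32.7% of the EM calls. Another 298 had the same sign without passing in EM, and 26 had the opposite sign. EM and DM libraries come from the same 4 clones, so the media are not independent checks of the label.

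Direct tests of whether the label difference depended on the medium gave 0 calls with edgeR, where 1126 genes had an unadjusted p under 0.05. That fit did not pair the EM and DM libraries of a clone, and the p-values for single genes below come from it. DESeq2 called 195, the fit with each clone as a block 70, and the fit without WT clone 2 in DM 14, so statements on the medium below are values only. Aqp5 stood at 4.46 and 3.61 CPM in the WT clones in EM and at 1.06 and 1.51 CPM in the KO-labelled clones (-1.65 ± 0.44, adjusted p = 0.0618), against -7.07 in DM, with an adjusted p of 0.227 for the difference between media. In the WT clones its level was thus higher in DM, and in the KO-labelled clones it was lower. Elf3 differed by -0.39 in EM and -1.54 in DM (adjusted p = 0.449 for the difference), and Chrm3 had no counts in the KO-labelled clones in EM either, against 4.06 and 5.06 CPM in the WT clones.

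Interferon genes showed the larger label difference in EM. There, 35 of the 38 listed genes rose and 1 fell, with a median of 2.13 against 0.85 in DM. Of 22 class I genes 17 rose, with a median of 2.01 against 0.73. Over all genes tested in EM 5.38% rose and 4.41% fell. Cxcl10 stood at 8.74 and 6.47 CPM in the WT clones and at 108 and 153 CPM in the KO-labelled clones in EM (4.10 in EM and 2.37 in DM, adjusted p = 0.456 for the difference). Inhba stood at 8.88 and 10.3 CPM against 109 and 98.5 CPM in EM (3.43, against 0.85 in DM, adjusted p = 0.211), and both WT clones in DM stood above every EM library. Cldn8 and Fzd10 had opposite signs in the media, at -0.51 and 1.76 and at -0.64 and 1.66 in EM and DM (adjusted p = 0.326 and 0.307). The smallest interaction p-values belonged to Pdlim2, Inhba, Gstm1 and Mov10, at adjusted p between 0.211 and 0.227, and Pdlim2, Gstm1 and Mov10 differed in EM (-1.32, -2.16 and 1.20) but at 0.40, -0.44 and 0.00 did not pass in DM.

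**Figure D5:**
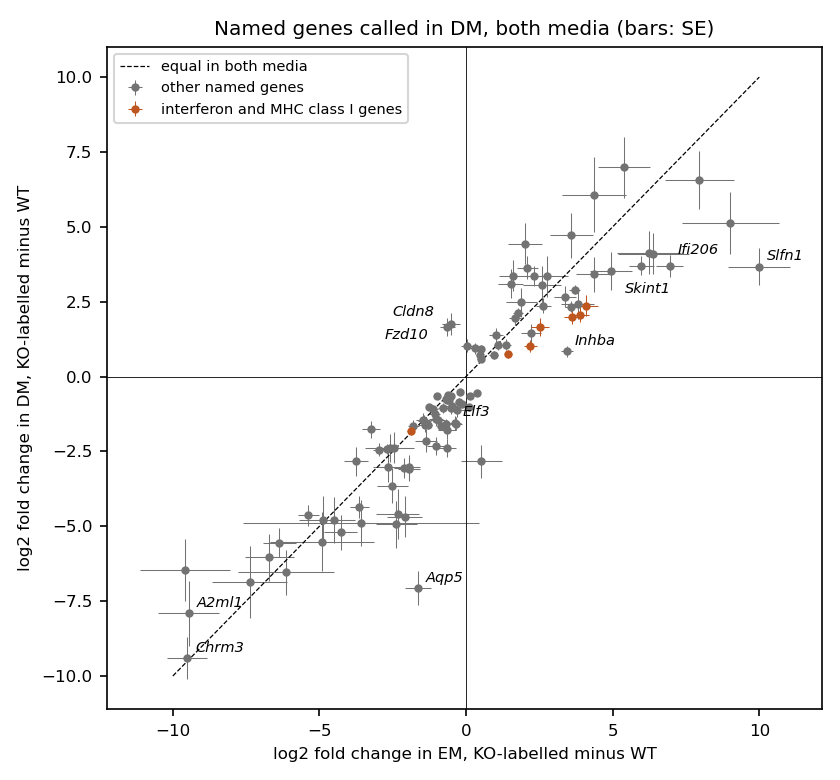
Fitted log2 fold change between KO-labelled and WT clones in DM (vertical axis) against EM (horizontal axis) for the named genes called in DM, with bars for the SE and a dashed line of equal change. Orange points, the interferon and class I genes, lie below the line when risen, such as Cxcl10 at 4.10 in EM and 2.37 in DM, and Aqp5 stands far off it at -1.65 and -7.07. Chrm3 and Slfn1 have a group at or near 0 counts in EM, so their fitted places there are no measured sizes.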

How the data were processed

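Polyadenylated RNA from organoids was sequenced with a stranded kit, per the labels' protocols. STAR, featureCounts and the GRCm38 build stand in the submitters' processing notes, without versions or strand settings. The deposited values are raw counts, not normalised by the authors, for 55487 gene IDs in the clone table, of which 55141 matched a symbol and 27383 had no counts. The depth per library is given with the results.

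Counts of the 8 clone libraries were fitted in R 4.3.3 with edgeR 4.0.16: low genes were removed with filterByExpr (0.0815% of counts), leaving 14282. Library sizes were scaled with TMM, which also gives the CPM. The quasi-likelihood model had 4 group means and 4 residual degrees of freedom, so DM and EM share 1 estimate of spread (biological coefficient of variation 0.234). It held no term for the clone, although the EM and DM libraries of a clone correlated at 0.309 in the random-effect fit. A call is a Benjamini-Hochberg adjusted p under 0.05 over all genes tested. SEs were derived from each log2 fold change and its F statistic (the change over the root of F). A group at 0 was given 3 counts over the group, and intervals cover counting error only. Gene positions are from GENCODE M21 and promoters from RefSeq, matched for 582 of 781 called genes and 21 of the 30 leading genes. Uncloned DM libraries were scaled among themselves.

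Genes were named by rule: Pax6; 15 rises and 15 falls of greatest size whose groups lie apart, with a mean of at least 10 CPM in either group and an assigned gene name; up to 4 called members of each of 43 lists by smallest p (where none was called, the most abundant), and the 4 smallest interaction p-values. Other list members named were chosen after their values were seen, apart from the cell type markers. Members and lists were chosen with earlier results of these data known, so lists are described by counts and medians. For 42 of the 43 lists the median is the same with genes at 0 in a group set to their bound. Alternatives were DESeq2 size factors, DESeq2 1.42.0, total-count scaling, no filter, only the 4 DM libraries, each library left out, a block on the clone number or clone, and the clone as a random effect (limma 3.58.1). Leaving out chromosome 19 or an EM library was added after seeing the data. Read alignments were not analysed here, and some single genes of the lists are not reported here.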

Additional observations from a re-analysis of the deposited data

How the results depend on the processing

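Calls between the labels in DM numbered 781 (341 higher, 440 lower in the KO-labelled clones). They were 1681 (734 and 947) with DESeq2, 2547 (1074 and 1473) without the filter on low counts and 110 (46 and 64) with only the 4 DM libraries, and 202 and 263 at a log2 change of at least 1. Leaving out one DM library gave 0 to 524 (0 to 249 higher, 0 to 275 lower), and leaving out one EM library, which only shares the spread, gave 289 to 630 (104 to 307 higher, 185 to 323 lower). Without KO-labelled clone 1 or 2 in EM the counts were 306 (111 and 195) and 289 (104 and 185). DESeq2 size factors gave 775, total-count scaling 811 (50.3% higher, against 43.7%), the clone as a random effect 866 (9 of the 15 leading falls and 14 of the 15 leading rises among them) and the fit without chromosome 19 759. Each of the 781 calls kept its direction in every setting that gave it a value, which groups that lie apart largely fix in advance. In EM, 1399 calls (769 and 630) became 2222 with DESeq2 (1084 lower), 2947 (1491 and 1456) without the filter and 175 to 494 (119 to 311 higher, 56 to 183 lower) without one library. For the difference between media, 0 calls became 195 (39 higher, 156 lower) with DESeq2, 657 (154 and 503) without the filter, and 0 to 14 (up to 8 higher and 6 lower) without one library. The Pax6 difference of -0.17 ran from -0.89 to 0.31 without one library, at 0.0178 without WT clone 2. Signs also turned for Pttg1 (-0.23 to 0.52 without one library), Rpl4 (0.0199 with total-count scaling, -0.124 to 0.0717 without one library) and Mov10 (-0.11 to 0.124). The cause of these changes was not tested. As a replicate block, the clone number gave 1099 calls in DM (483 and 616) and 1740 in EM (932 and 808), but it only names clones: the difference of clone 2 from clone 1 correlated at 0.0245 between the labels over genes, which are not independent. For the difference between media, the clone that EM and DM share as a replicate block gave 70 calls (6 higher, 64 lower). The number of clones, 2 per label, limits the precision, and so does depth for genes with few counts.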

Other observations

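A few differences lay outside the groups described above. Chromosome 19 held 34 called genes among 494 tested, 26 higher and 8 lower in the KO-labelled clones, which is 6.88% against 4.42% to 6.60% on the 19 other chromosomes (autosomes and X). In EM its median log2 difference between the labels was 0.31, and relative to WT clone 1 its median level was 0.21 higher in WT clone 2, 0.33 in KO-labelled clone 1 and 0.48 in KO-labelled clone 2. Chromosome 18 showed the reverse in both media: the 3 other clones lay below WT clone 1, by -0.15, -0.15 and -0.14 in DM and by -0.23, -0.22 and -0.18 in EM. The part of these chromosome levels in single genes was not tested.

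Among crystallins, neural and islet genes that Pax6 is known to act on in other tissues, 9 of 34 listed genes passed the filter in DM and 13 had no counts in the clone table. Cryab, a small heat shock protein first known from the lens, fell from 12.77 and 9.34 CPM in the WT clones to 3.95 and 2.55 CPM in the KO-labelled clones (-1.76 ± 0.30, adjusted p = 0.0275 by edgeR), and Ncam1 was the only rise. Kallikreins and serine protease inhibitors had 2 rises, Slpi and Klk8, and no fall among 12 tested genes. Slpi, which blocks leukocyte proteases, stood at 6.95 and 9.56 CPM against 16.0 and 17.7 CPM (1.03 ± 0.21, adjusted p = 0.0424 by edgeR). Serpinb2, named after its value was seen, stood at 15.6 and 15.5 CPM against 36.7 and 27.8 CPM (1.05 ± 0.24, adjusted p = 0.0531 by edgeR). Calls in these lists were 0 without KO-labelled clone 1.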
